A study of Homo sapiens with 4 samples.

Results

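Annexins are a family of calcium-dependent proteins that bind acidic phospholipids, and 7 of their genes (ANXA1, ANXA2, ANXA4, ANXA5, ANXA6, ANXA7 and ANXA11) are described here together with ANXA2P2, an intronless processed copy of ANXA2. The 8 genes were taken by name from a table of 18567 genes. They were selected on their measured TPM values in the comparison below, ANXA2P2 for its large difference, so their differences between groups are given as a description and without a test. All 4 samples were labelled Kasumi-1, a line from acute myeloid leukemia (AML) that carries the RUNX1-RUNX1T1 fusion. The NC group (n = 2) was labelled as untreated, with shRNA none, and the sh-ANP32B group (n = 2) as carrying an ANP32B knockdown. In the study's methods the knockdown was made with lentiviral hairpins and puromycin selection against a control hairpin, so effects of infection and selection cannot be told apart from those of the knockdown if NC had no hairpin. The hairpin carried by each sh-ANP32B sample was not named. No source states that the 2 samples of a group came from separate cultures, so the errors below may be technical.

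Levels are in TPM, a transcript abundance unit that divides the reads of a gene by its length and by the total of its sample. Differences are log2 fold changes, sh-ANP32B minus NC, on log2(TPM + 1), with the standard error (SE) of limma. A gene was called when its limma adjusted p was under 0.05, over the 16817 genes that reached 1 TPM in 2 or more samples. ANP32B, the targeted gene, measured 383.8 and 392 TPM in the NC pair against 51.8 and 41.2 TPM in the knockdown pair (log2 fold change -3.04, SE 0.150, limma adjusted p 0.00516). Of 11 marker genes of Kasumi-1 myeloblasts 9 had a row, with a summed level between 1953 and 2405 TPM. RUNX1T1 lay between 15.6 and 31.2 TPM and CD33 between 58.5 and 70.1 TPM, whereas KIT, a receptor typical of this line, was only 1.55 to 3.41 TPM. CD34 and MPO, which also define the line, had no row and were not analysed here. The name of the line is therefore taken from the sample labels, and its identity was not tested. Of 15 T cell, B cell, erythroid, epithelial and fibroblast markers 3 had a row.

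Annexins share a core of repeated domains that holds the calcium sites, and they differ in a short N-terminal part that binds partners, often proteins of the S100 family. Annexin A2 joins S100A10 in a complex at the plasma membrane that takes part in plasmin formation, annexin A1 is a mediator of glucocorticoid action that signals through formyl peptide receptors, and annexin A5 binds phosphatidylserine exposed on dying cells. In myeloid cells annexin A1 is abundant in mature granulocytes and monocytes, and annexin A2 is known for its high level on promyelocytic leukemia cells.

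The copy was compared with its parent first by sequence, because reads of near-identical genes can be assigned to either one. ANXA2P2 (ENSG00000231991) is a single exon of 1020 bases on the plus strand of chromosome 9 (chr9:33624274-33625293, hg38, GENCODE v44), annotated as a processed pseudogene. ANXA2 (ENSG00000182718) lies on the minus strand of chromosome 15 (chr15:60347134-60402883), and its canonical transcript has 13 exons and 1554 bases. The copy aligned without a gap to the whole coding sequence of that transcript, also 1020 bases, with 1004 matching bases and an identity of 98.4%. Its reading frame ran through 339 codons before the first stop, as in the parent. Of the 16 base differences 5, 4 and 7 fell at codon positions 1, 2 and 3.

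A stretch of the copy with 5 differences is shown because reads can be told apart there, and 5 others lie close together between bases 780 and 825. It covers bases 177 to 266 of the copy (chr9:33624450-33624539, plus strand). The parent's stretch is spliced from parts of exons 4 and 5 of ANXA2. Its bases lie within chr15:60361032-60364495 on the minus strand, a span that includes the intron between these exons. Capitals mark the 5 bases that differ, which are T178G, A190G, G191A, C215T and G220T, with the parent's base first, the position counted from the first base of the copy, and the copy's base last.
ANXA2P2: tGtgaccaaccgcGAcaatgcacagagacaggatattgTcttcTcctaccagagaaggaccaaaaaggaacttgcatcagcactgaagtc
ANXA2: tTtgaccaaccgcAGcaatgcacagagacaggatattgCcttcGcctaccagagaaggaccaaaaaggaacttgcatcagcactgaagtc

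The longest identical run covered 221 bases, from base 364 to base 584 of the copy. Its first 90 bases (chr9:33624637-33624726, plus strand, and exons 6 and 7 of ANXA2 within chr15:60355994-60357230, minus strand) are shown as a stretch in which a read lying wholly inside cannot be placed by its letters, with no capitals because no base differs.
ANXA2P2 and ANXA2: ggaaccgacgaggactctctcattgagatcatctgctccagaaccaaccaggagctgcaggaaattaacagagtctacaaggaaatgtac

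Of the 921 windows of 100 bases in the copy, 287 (31.2%) were also found letter for letter in the canonical ANXA2 transcript, and of the 971 windows of 50 bases 575 (59.2%) were. Seen from the parent, 19.7% of its windows of 100 bases occurred in the copy. The read length and the treatment of reads with several matches are not given in the sources used here, so the levels of ANXA2P2 are uncertain, and those of ANXA2 less so. No other pair of the 8 genes shared an exact stretch of more than 21 bases between their canonical transcripts, the longest being that of ANXA4 and ANXA11. The other processed copies in the annotation, ANXA2P1 and ANXA2P3, had an identity of 93.6% and 91.3% with ANXA2 and no row in the table, and their levels were not analysed here.

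ANXA2 was the most abundant of the 8 genes in NC, and both it and its copy were lower in sh-ANP32B. ANXA2 measured 448 TPM in NC replicate 1 and 436 TPM in replicate 2, against 205 TPM in sh-ANP32B replicate 1 and 173 TPM in replicate 2. Its mean went from 442 ± 8.27 to 189 ± 22.1 TPM (SD, n = 2 each), or to 42.7% of NC (log2 fold change -1.23, SE 0.133). Both sh-ANP32B samples lay far below both NC samples. In cultures measured as a whole, fewer cells with a transcript and less of it per cell cannot be told apart.

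ANXA2P2 was 36.5 and 40.5 TPM in NC, against 12.5 and 12.2 TPM with the knockdown. The mean was 38.5 ± 2.76 TPM against 12.3 ± 0.233 TPM (SD, n = 2 each), or 32.04% of NC (log2 fold change -1.56, SE 0.162). The groups did not overlap, and the copy was the seventh of the 8 genes by mean level in NC and the last in sh-ANP32B.

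The copy was a small share of its parent in every sample, and a smaller one in sh-ANP32B. Its level was 8.16% and 9.27% of that of ANXA2 in the NC replicates and 6.11% and 7.02% in the sh-ANP32B replicates. The mean was 8.72 ± 0.788% in NC and 6.57 ± 0.643% in sh-ANP32B (SD, n = 2 each), with both sh-ANP32B samples below both NC samples. On the log2 scale the difference of the copy exceeded that of the parent by -0.34. It ranged from -0.44 to -0.24 when 1 sample was left out, and it was -0.40 with a pseudocount of 0.1 and -0.37 after GC correction. The filters, the block and the trend do not enter this value. Since ANXA2P2 was proposed for its difference, and its comparison with the parent with it, no test of this value was made.

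**Figure D1:**
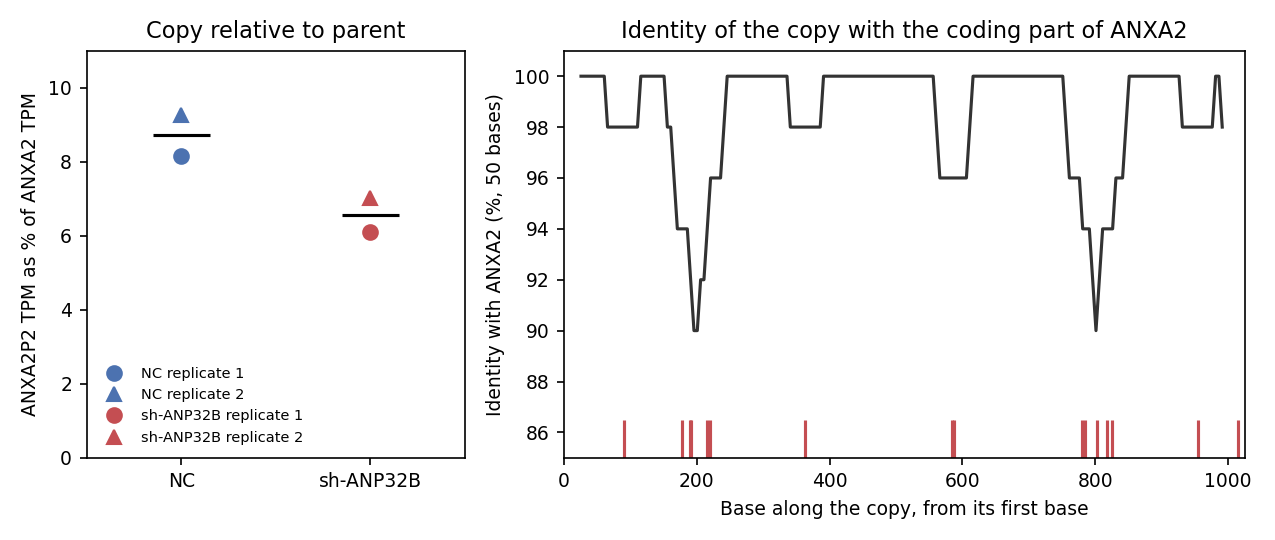
The left panel plots the TPM of ANXA2P2 as a percent of the TPM of ANXA2 in each of the 4 samples, with bars at the group means, and the right panel the identity of the copy with ANXA2 in windows of 50 bases along its 1020 bases, with ticks at the 16 differences. The NC samples sit at 8.16% and 9.27% and the sh-ANP32B samples at 6.11% and 7.02%, and the longest stretch without a tick covers 221 bases.

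The pair was set beside other processed copies and their parents, found by symbol and tested in the same fit. There were 550 such copies of 342 parents, many of them copies of ribosomal protein genes that are close to each other in sequence. The copy minus parent difference had a median of 0.09 over the 550 pairs, with quartiles of -0.19 and 0.39. ANXA2P2 stood at rank 87 from the most negative, between TPI1P1 (-0.343) and RPL7AP62 (-0.334), below the lower quartile, and 243 pairs had a larger difference in either direction. Among the 123 copies with a mean of at least 10 TPM it stood at rank 16. RPL35AP6, RPL23P8, RPS15AP1 and ST13P5 were the next nearest, with differences from -0.348 to -0.326. Both members of the pair had large differences, which was known when they were proposed. By log2 fold change ANXA2P2 stood at rank 3 from the lowest of the 550 copies and ANXA2 at rank 3 of the 342 parents, and only 1 other pair, FABP5 (-1.40) and FABP5P7 (-1.15), had both below -1. In 316 of the 550 pairs the copy and the parent had the same sign.

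**Figure D2:**
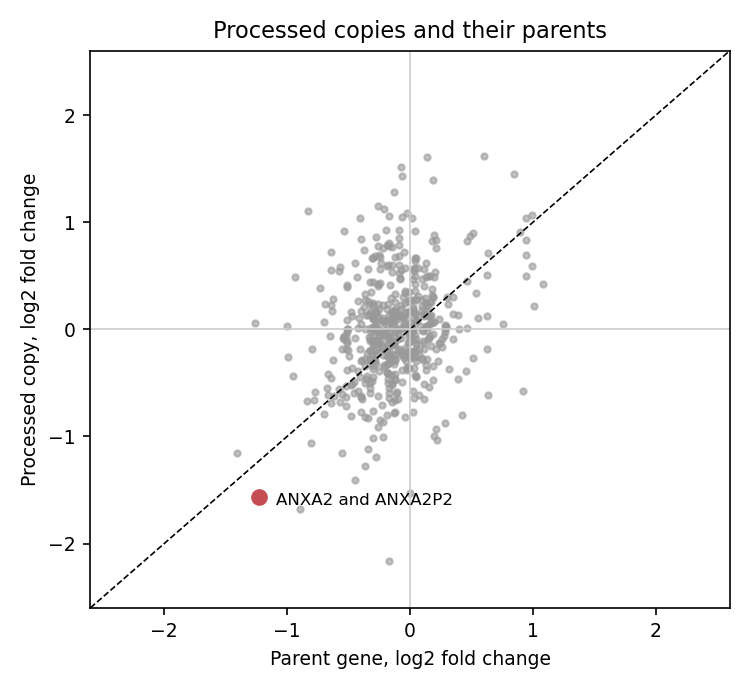
Each point is 1 of 550 processed copies, with the log2 fold change (sh-ANP32B minus NC) of its parent gene on the x axis and its own on the y axis, and the dashed line marks equal values. The pair of ANXA2 (-1.23) and ANXA2P2 (-1.56), in red, lies at the lower left, below the line by 0.338 and apart from most other points.

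Among the 9743 genes with a mean of at least 10 TPM, those with the pattern most like ANXA2P2 over the 4 samples, by distance between centred log2 values, were CTDSPL, MFAP4, JPT1, EI24 and MTHFD1, at distances between 0.148 and 0.288. ANXA2 ranked 10th by this measure. Those most like ANXA2 were CENPH, a kinetochore protein, MCM3, a subunit of the replicative helicase, HMGB1P6, SEM1 and the mitochondrial tRNA gene MT-TG, at distances between 0.093 and 0.149, and the copy ranked 96th. The distances are small because each of these genes was lower in sh-ANP32B by a similar amount, with log2 fold changes from -1.55 to -1.12.

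ANXA1 was the annexin with the highest positive difference. It lies on chromosome 9 (chr9:73151865-73170393, plus strand) and was 84.4 TPM in both NC replicates, against 188 and 121 TPM in sh-ANP32B replicates 1 and 2. Both sh-ANP32B samples were above NC, but they lay apart, replicate 2 minus replicate 1 being -0.63 on the log2 scale. Its mean went from 84.4 to 154 ± 46.9 TPM (SD, n = 2), a ratio of 1.83, with a log2 fold change of 0.83 (SE 0.211). Without sh-ANP32B replicate 1 the log2 fold change was 0.52, and without replicate 2 it was 1.14.

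ANXA5, ANXA4 and ANXA6 lay near the median of all genes. ANXA5 (chr4:121667946-121696995, minus strand), whose protein is the reagent of the apoptosis stain used in the study, measured 126 and 138 TPM in NC, against 160 and 131 TPM with the knockdown (log2 fold change 0.13, SE 0.147). The groups overlapped. ANXA6 (chr5:151100706-151157815, minus strand), an annexin with a duplicated core that takes part in endocytic traffic, measured 248 and 225 TPM in NC, against 229 and 278 TPM with the knockdown (log2 fold change 0.09, SE 0.144). These groups overlapped as well, and the sign turned after GC correction, where the value was -0.02, after median-of-ratios scaling, where it was -0.0012, and without sh-ANP32B replicate 2, where it was -0.05. ANXA4 (chr2:69644425-69827112, plus strand), a membrane-binding annexin best known from epithelia, was 19.3 and 18.7 TPM in NC, against 21.6 and 19.9 TPM with the knockdown. Its groups did not overlap, but the log2 fold change of 0.12 (SE 0.163) was smaller than its error. ANXA4 overlaps AAK1 on the opposite strand, and use of strand in the counting is not stated.

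ANXA7 and ANXA11 carry the longest N-terminal parts of the family, which bind the calcium sensors PDCD6 and SRI (annexin A7) or PDCD6 and S100A6 (annexin A11). ANXA7 (chr10:73375101-73414076, minus strand) measured 68.1 and 78.2 TPM in NC, against 63.1 and 62.8 TPM with the knockdown (log2 fold change -0.21, SE 0.140). Its sh-ANP32B samples lay just below the NC samples. ANXA11 (chr10:80150889-80205572, minus strand) was 74.2 and 80.6 TPM in NC, but 47.6 TPM in sh-ANP32B replicate 1 and 97.2 TPM in replicate 2, one below and one above both NC samples. Its log2 fold change of -0.18 (SE 0.308) turned to 0.33 without sh-ANP32B replicate 1 and was -0.69 without replicate 2. Only 812 of the 16817 genes (4.83%) had a larger difference between the sh-ANP32B replicates.

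**Figure D3:**
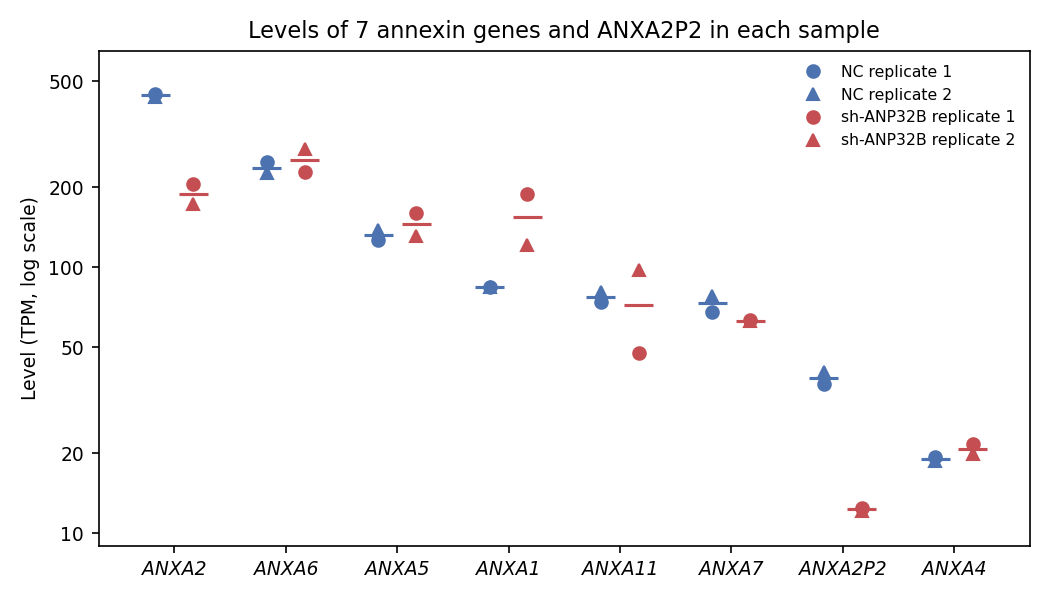
Levels in TPM on a log axis for the 8 genes, ordered by their mean in NC, with a point for each of the 4 samples and a line at each group mean. ANXA2 drops from 448 and 436 to 205 and 173 TPM and ANXA2P2 from 36.5 and 40.5 to 12.5 and 12.2 TPM, whereas the sh-ANP32B samples of ANXA11 lie apart at 47.6 and 97.2 TPM.

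The replicates of sh-ANP32B differed in an ordered way among the annexins. In ANXA1, ANXA2, ANXA4, ANXA5 and ANXA7, whose longest transcripts have a GC content between 38.9% and 43.99%, sh-ANP32B replicate 2 was below replicate 1, with log2 differences from -0.63 to -0.0067. In ANXA6 and ANXA11, with 53.8% and 52.3% GC, replicate 2 was above replicate 1 by 0.28 and 1.02. ANXA2P2, at 48.3%, differed by only -0.04. Over all 15427 genes with a GC value the difference between these replicates had a Spearman rho of 0.58 with GC content. Between the NC replicates the rho was -0.21. Both are differences within a group, and whether they came from hairpin, culture or library was not tested. After GC correction ANXA2 and ANXA2P2 had log2 fold changes of -1.24 and -1.61 and ANXA1 0.82. Transcripts of the 37 mitochondrial genes took 12.9% and 13.1% of the summed TPM in NC, against 11.4% and 8.43% with the knockdown, and without them the log2 fold changes of ANXA2, ANXA2P2 and ANXA1 were -1.28, -1.62 and 0.78.

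Of the 8 genes 4 had a positive and 4 a negative log2 fold change, with a median of -0.04 against 0.08 over all genes tested. No adjusted p is given for them, because they were selected on this contrast, in which 3.32% of all genes were called. The groups did not overlap in 5 of the 8, against 54.6% of all genes, with 2 of the 5 higher in sh-ANP32B (33.2% of all genes) and 3 lower (21.4%). As the same contrast was known when the genes were proposed, nothing is read from these counts.

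**Figure D4:**
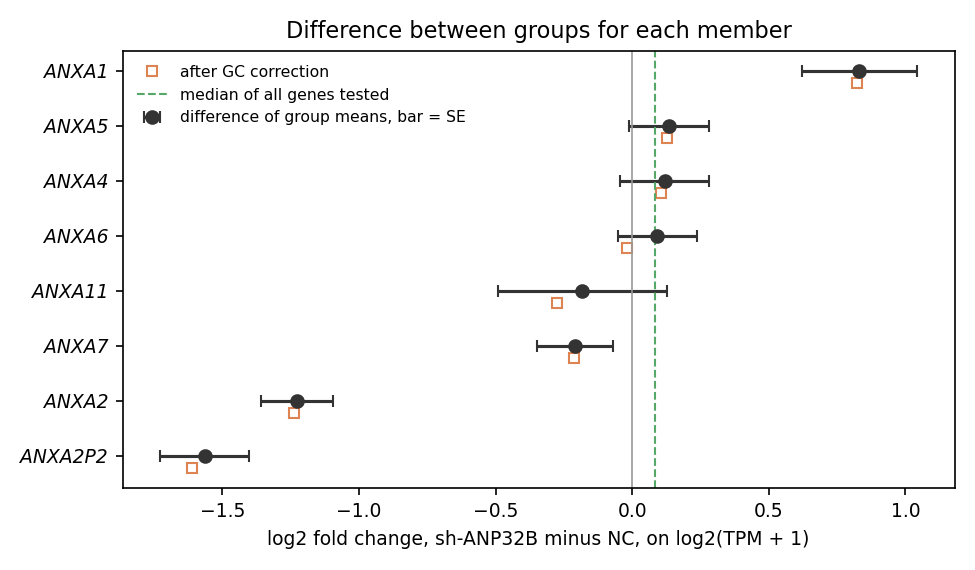
The log2 fold change of each of the 8 genes (sh-ANP32B minus NC, filled points, bars for the SE), its value after GC correction (open squares) and the median of all genes tested (dashed line, 0.0827). ANXA2P2 (-1.56) and ANXA2 (-1.23) stand to the left, ANXA1 (0.83) to the right, and the other 5 genes lie between -0.21 and 0.13.

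These differences changed the make-up of annexin transcripts. TPM can be compared between genes, as it is per length, and the order in NC was ANXA2, ANXA6, ANXA5, ANXA1, ANXA11, ANXA7, ANXA2P2 and ANXA4, where only ANXA11 and ANXA7 had overlapping replicates among neighbours. In sh-ANP32B the order was ANXA6, ANXA2, ANXA1, ANXA5, ANXA11, ANXA7, ANXA4 and ANXA2P2. There the replicate ranges of ANXA2 and ANXA1, of ANXA1 and ANXA5, and of ANXA11 and ANXA7 overlapped. Within each sh-ANP32B sample ANXA2 was above ANXA1, at 205 against 188 and 173 against 121 TPM. ANXA1 and ANXA5, and ANXA11 and ANXA7, changed order between the sh-ANP32B samples. The 7 annexin genes without the copy summed to 1068 and 1061 TPM in NC and to 913 and 884 TPM in sh-ANP32B. ANXA2 made up 41.9% and 41.1% of that sum in NC and 22.4% and 19.6% in sh-ANP32B, and ANXA1 7.90% and 7.95% against 20.5% and 13.7%. Without ANXA2 the sum was 620 and 625 TPM in NC, against 709 and 710 TPM with the knockdown. This higher sum was not shared by each of the other 6 genes. ANXA1 differed most, at 84.4 TPM in both NC samples against 188 and 121 TPM in sh-ANP32B. ANXA4, ANXA5 and ANXA6 had log2 fold changes of 0.12, 0.13 and 0.09, and ANXA7 and ANXA11 of -0.21 and -0.18. Of 6 other annexin genes looked for only ANXA9 had a row, at 2.19 and 3.598 TPM in NC, against 3.68 and 5.22 TPM with the knockdown (log2 fold change 0.49, SE 0.305, limma adjusted p 0.379), and ANXA3, ANXA8, ANXA8L1, ANXA10 and ANXA13 were not analysed here.

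Genes that work with the annexins were taken from 4 lists written from general knowledge of annexins. They were chosen with earlier results of these data known, so their counts and medians below are a description only. Together with ANXA9 the lists held 67 tested genes. Of these 7 rose in sh-ANP32B and 0 fell by limma, at 25 genes with an unadjusted p under 0.05. Over all genes tested 2.14% rose and 1.18% fell. The 67 genes had a median log2 fold change of 0.28 against 0.08 over all genes, and 52 of them had a positive value, against 57.9% of all genes. These calls depended on the fit. Without the abundance trend of limma 0 of the 67 genes were called, at 22 with an unadjusted p under 0.05. After median-of-ratios scaling 4 rose (AHNAK, TSC22D3, ALOX5AP and MYOF) and 1, FKBP5, fell. All 7 were called after GC correction and with the replicate number as a block, where 20 and 13 of the 67 were called, and 6 of them with both together. Without NC replicate 1 the number called was 3, without NC replicate 2 it was 1 (TSC22D3), and without sh-ANP32B replicate 1 or 2 it was 24 or 27.

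In the list of the annexin A2 complex and the plasmin system 4 of 15 genes rose and 0 fell, with a median log2 fold change of 0.62. S100A10, the obligate partner of annexin A2 in the complex, was 64.4 and 59.5 TPM in NC, against 84.7 and 107.5 TPM with the knockdown. Both sh-ANP32B samples were above both NC samples, but the difference missed the threshold (log2 fold change 0.62, SE 0.161, limma adjusted p 0.0845), and its sign was opposite to that of ANXA2. AHNAK, a giant scaffold protein recruited by the complex, rose from 80.5 and 87.1 TPM to 153 and 164 TPM (log2 fold change 0.91, SE 0.130, limma adjusted p 0.0348).

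S100A6, an S100 protein that binds several annexins, rose from 281 and 267 TPM to 468 and 648 TPM (log2 fold change 1.00, SE 0.174, limma adjusted p 0.0439). S100A4, another annexin A2 ligand, rose from 689 and 687 TPM to 1105 and 1081 TPM (log2 fold change 0.67, SE 0.116, limma adjusted p 0.0440). CTSB, the lysosomal protease cathepsin B, rose from 439 and 382 TPM to 627 and 720 TPM (log2 fold change 0.71, SE 0.139, limma adjusted p 0.0482). After median-of-ratios scaling S100A4 (limma adjusted p 0.0558), S100A6 (0.052) and CTSB (0.0719) were no longer called, which left AHNAK of this list, and without the abundance trend none of the 4 was called (0.114 to 0.142). S100A4 was also not called with the block and GC correction together (0.0643). PLAU and its receptor PLAUR, which activate plasminogen at the cell surface, had log2 fold changes of 0.74 (SE 0.158) and 0.67 (SE 0.175), with a limma adjusted p of 0.0581 and 0.0833. The 3 genes of this list with a negative log2 fold change were PLGRKT (-0.34, SE 0.182), ENO1 (-0.21, SE 0.134) and PLAT (-0.08, SE 0.346). Their limma adjusted p was 0.313, 0.385 and 0.922. PLG, plasminogen itself, had no row and was not analysed here.

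In the list of annexin A1 partners, receptors and the glucocorticoid response 2 of 12 genes rose and 0 fell, with a median log2 fold change of 0.53. TSC22D3, a leucine zipper protein induced by glucocorticoids, rose from 65.3 and 61.9 TPM to 185 and 207 TPM (log2 fold change 1.60, SE 0.132, limma adjusted p 0.0154). ALOX5AP, which presents arachidonic acid for leukotriene synthesis, rose from 148 and 146 TPM to 301 and 303 TPM (log2 fold change 1.03, SE 0.118, limma adjusted p 0.0261). The classic glucocorticoid-induced gene FKBP5 stood on the other side of 0, with 31.4 and 31.4 TPM in NC, against 18.5 and 18.3 TPM with the knockdown (log2 fold change -0.74, SE 0.154, limma adjusted p 0.0557).

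The glucocorticoid receptor NR3C1 was 36.1 and 35.2 TPM in NC, against 54.4 and 51.9 TPM with the knockdown (log2 fold change 0.56, SE 0.139, limma adjusted p 0.0763). FPR2, the receptor of annexin A1, was 0.422 and 0.803 TPM in NC, against 3.54 and 2.81 TPM with the knockdown (log2 fold change 1.38, SE 0.319, limma adjusted p 0.0678). Its samples did not overlap, but the values are low and the depth behind them is unknown. FPR1 lay between 1.17 and 3.26 TPM, with a limma adjusted p of 0.357. S100A11, the partner of annexin A1, was 453 and 450 TPM in NC, against 549 and 468 TPM with the knockdown (log2 fold change 0.17, SE 0.131, limma adjusted p 0.495), so the groups did not overlap but the difference was close to its error. FPR3, ALOX5, PTGS2 and CMKLR1 had no row and were not analysed here.

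In the list for exposure and recognition of phosphatidylserine, the lipid that annexin A5 binds, 0 of 19 genes were called by limma, and the median log2 fold change was 0.18. TMEM30A, the shared subunit of the flippases that keep the lipid inside, was 81.3 and 84.6 TPM in NC, against 123 and 97.6 TPM with the knockdown (log2 fold change 0.40, SE 0.155, limma adjusted p 0.187). ANO6, a calcium-activated scramblase, was 44.1 and 47.5 TPM in NC, against 57.7 and 45.1 TPM with the knockdown (log2 fold change 0.15, SE 0.168, limma adjusted p 0.637). XKR8, AXL, TIMD4, STAB1, PLSCR4 and ADGRB1 had no row and were not analysed here. After GC correction TMEM30A, ATP8B4, CD300A and CD300LF were among the genes of this list that were called, each of them higher.

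In the list of annexin A7 and A11 partners and of calcium-dependent membrane repair 1 of 20 genes rose and 0 fell, with a median log2 fold change of 0.16. MYOF, the membrane repair protein myoferlin, rose from 6.58 and 7.85 TPM to 16.4 and 16.1 TPM (log2 fold change 1.08, SE 0.194, limma adjusted p 0.0440). PDCD6, the calcium sensor of both annexins, was 78.9 and 72.1 TPM in NC, against 81.9 and 78.6 TPM with the knockdown (log2 fold change 0.09, SE 0.133, limma adjusted p 0.739). SRI, or sorcin, was between 48.7 and 54.4 TPM in the 4 samples (log2 fold change -0.0025, SE 0.141, limma adjusted p 0.996). The differences of these sensors were smaller than their errors. OTOF, SYT7 and TRIM72 had no row and were not analysed here.

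**Figure D5:**
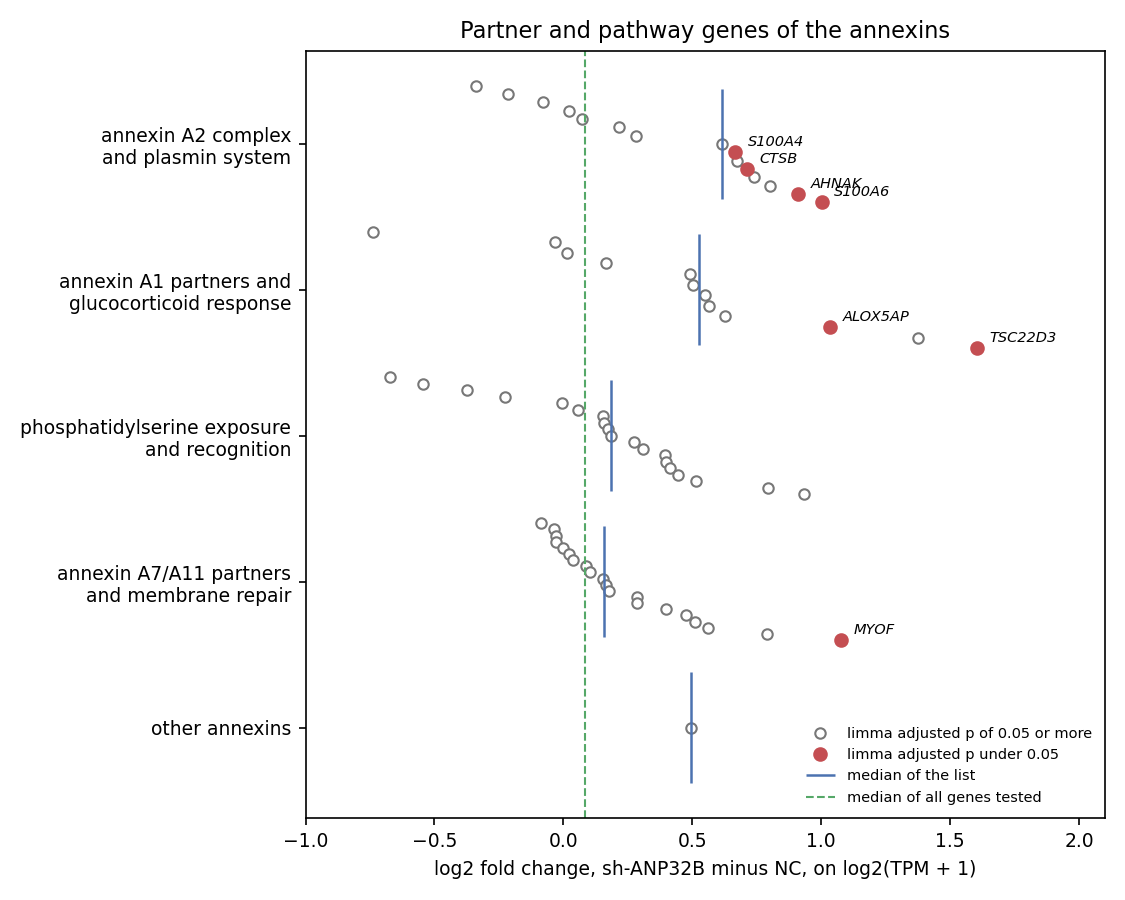
The log2 fold change (sh-ANP32B minus NC) of 67 tested genes in 5 groups, with the genes past a limma adjusted p of 0.05 filled and named, a vertical bar at the median of each list and a dashed line at the median of all genes (0.0827). The 7 filled points all lie to the right, 4 of them in the annexin A2 list, whose median is 0.62.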

How the data were processed

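Total RNA of 4 Kasumi-1 samples was sequenced with a TruSeq RNA kit. Per the submitters' processing notes, HISAT2 2.0.5 and hg38 were used, and the deposited values are TPM, identified from column sums between 997812 and 998314. The quantifier, annotation and filters are not given in the sources used here. TPM keeps no depth, so the depth and counting error are unknown. Of 18567 gene IDs, 16986 were found in GENCODE v44, which gave symbols, positions and sequences.

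Samples were grouped by title. The 16817 genes that reached 1 TPM in 2 or more samples were compared on log2(TPM + 1) with limma 3.58.1 (R 4.3.3, abundance trend, two-sided, Benjamini-Hochberg over all genes). The test used by the study needs read counts, which TPM are not. An exact test of 2 against 2 samples cannot reach 0.05. The code was tested on simulated data. No values above 0 were identical between replicates. The members and lists were chosen with earlier results of these data known. Besides the 8 genes, the text names list genes that were called, certain direct partners or sensors, the 5 nearest patterns, and 3 copy pairs on each side of ANXA2P2. PLAU, PLAUR, PLGRKT, ENO1, PLAT, FKBP5, NR3C1, ATP8B4, CD300A, CD300LF and the pair of FABP5 were named after their values were seen. Sequences were aligned with Biopython 1.88.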

Additional observations from a re-analysis of the deposited data

How the results depend on the processing

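With 2 samples in a group, the number of genes called depended strongly on the fit. ANXA1, ANXA2, ANXA2P2, ANXA4 and ANXA7 kept the sign of their fold changes in each setting. Over 9 alternative settings the log2 fold change of ANXA2 lay between -1.32 and -1.23 (without 1 sample, -1.35 to -1.11), that of ANXA2P2 between -1.65 and -1.56 (-1.64 to -1.49) and that of ANXA1 between 0.74 and 0.84 (0.52 to 1.14). The filters, the replicate block and the abundance trend do not enter these values, so those settings could not move them. The block with GC correction gave the same values as GC correction alone. The copy minus parent difference, -0.34, ranged from -0.44 to -0.24 without 1 sample. The signs of ANXA5, ANXA6 and ANXA11 turned in at least 1 setting. The 559 called genes were 2348 after GC correction, 1473 with the replicate block, 1511 with the replicate block and GC correction together, 0 without the abundance trend (3701 at an unadjusted p under 0.05) and 3130 under the study's criterion (unadjusted p under 0.05 and a log2 fold change beyond 0.5 in either direction). They were 273 to 4079 without 1 sample, where the lone sample of a group is assumed to vary like the other group. After median-of-ratios scaling 230 rose and 288 fell, against 360 and 199. The 7 called genes of the lists were 20 after GC correction, 13 with the replicate block, 12 with the replicate block and GC correction, 0 without the trend (22 at an unadjusted p under 0.05), 21 under the criterion, and 1 to 27 without 1 sample. The cause of these shifts was not tested. Samples with the same number did not deviate together (Pearson r -0.093, Spearman rho -0.17 over 16817 genes), and the numbers were not taken as pairs. The check used values without GC correction. Replicate differences followed GC content with opposite signs, at a Spearman rho of 0.58 in sh-ANP32B and -0.21 in NC. It therefore cannot decide whether the samples were paired.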
